A study of Mus musculus with 40 samples.

Results

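The regions described here are wide H3K4me1 regions at promoters: merged H3K4me1 ChIP-seq regions of 1000 bp or more whose nearest annotated gene start lies within 1000 bp. They number 2325 of the 180017 merged H3K4me1 regions and carry 2250 gene symbols. The study profiled chromatin of flow-purified mouse small pre-B cells taken from the bone marrow, and reads in merged regions numbered 3784506 to 30496715 per KO or WT library. The oligomycin group (ATPneg) was wild-type cells held for 2 h in 126 nM Oligomycin A, an inhibitor of the mitochondrial ATP synthase, before chromatin was prepared. The knockout group (KO) came from Brwd1-/- mice, which lack a bromodomain and WD-repeat protein that binds acetylated histones. The untreated group (WT) came from wild-type mice. H3K4me1, H3K27ac and CTCF were profiled in KO and WT cells, and SMC3, RAD21, NIPBL and WAPL in ATPneg, KO and WT cells, with 2 biological replicates per target and group and 2 inputs per genotype. The labels say that no cultured cells were used, yet the ATPneg cells were held in culture, and no untreated cells held the same way were analysed here. They give no age, no strain and no description of the Brwd1 allele, and they do not say whether animals were pooled.

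Monomethylation of histone H3 at lysine 4 is the mark best known from enhancers, where it commonly occurs with H3K27ac when the element is active. At active promoters it usually sits on the flanks of the gene start, while trimethylation of the same lysine occupies the centre. Cohesin is a ring that contains SMC3 and RAD21, is loaded with the help of NIPBL, is released by WAPL, extrudes DNA loops using ATP and is halted at sites bound by CTCF. Small pre-B cells are quiescent, rearrange their Ig light chain genes and silence the programme of proliferation that came before.

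The sample labels need care before any KO and WT values are set side by side. In 4 histone lists the peak names belong to other samples: both H3K27ac KO lists carry the names of H3K4me1 in WT, and both H3K4me1 WT lists carry the names of H3K27ac in KO. The peak names of NIPBL KO 2 and NIPBL WT 1 also belong to the opposite genotype. The genotype field of the KO libraries of both histone marks reads WT, whereas their titles and descriptions say knockout. Libraries are therefore called by their titles throughout, no sample was moved, and every KO and WT direction below for H3K4me1, H3K27ac and NIPBL is that of the labels. The wide regions themselves rest mainly on the libraries labelled H3K4me1 WT. Over the 342 wide promoter regions that overlapped an H3K27ac region reciprocally by at least 50%, log2 CPM (CPM, the read count scaled to the reads that the library has in all regions) of H3K4me1 WT 1 correlated with H3K4me1 KO 1 at r = 0.631 and with H3K27ac WT 1 at r = 0.813. H3K27ac KO 1 correlated with H3K4me1 KO 1 at r = 0.836 and with H3K27ac WT 1 at r = 0.809. Replicates of 1 group correlated at r = 0.963 to 0.991 over the same regions, which share their widths and their base composition. Over all 150114 regions joined in this way H3K4me1 KO 1 correlated with H3K4me1 WT 1 at r = 0.959 and with H3K27ac KO 1 at r = 0.960, H3K4me1 WT 1 with H3K27ac WT 1 at r = 0.960, and H3K27ac KO 1 with H3K27ac WT 1 at r = 0.966. Whether libraries were exchanged was not tested, and a genotype difference cannot be told apart from a difference in antibody where the names disagree.

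The promoters of 6 genes whose regions recur below are printed from RefSeq (GRCm38.p6), with each CG dinucleotide in capitals. Each runs from 250 bases before to 50 bases after the gene start. Their positions in that build are chr2:126675543-126675842 (minus strand) for Gabpb1, chr1:128592250-128592549 (minus) for Cxcr4, chr13:52583187-52583486 (plus) for Syk, chr11:23770920-23771219 (minus) for Rel, chr9:51213440-51213739 (plus) for Pou2af1 and chr9:107551305-107551604 (plus) for Rassf1. These positions are not comparable with the mm9 positions of the regions. Gabpb1, Syk and Rassf1 have 2 promoters listed, of which the first is shown.
Gabpb1: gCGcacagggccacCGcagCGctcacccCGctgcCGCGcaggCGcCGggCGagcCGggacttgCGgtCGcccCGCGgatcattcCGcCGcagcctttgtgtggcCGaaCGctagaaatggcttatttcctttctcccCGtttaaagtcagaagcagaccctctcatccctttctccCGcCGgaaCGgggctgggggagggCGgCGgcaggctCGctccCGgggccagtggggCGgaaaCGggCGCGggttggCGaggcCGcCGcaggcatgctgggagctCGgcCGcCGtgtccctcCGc
Cxcr4: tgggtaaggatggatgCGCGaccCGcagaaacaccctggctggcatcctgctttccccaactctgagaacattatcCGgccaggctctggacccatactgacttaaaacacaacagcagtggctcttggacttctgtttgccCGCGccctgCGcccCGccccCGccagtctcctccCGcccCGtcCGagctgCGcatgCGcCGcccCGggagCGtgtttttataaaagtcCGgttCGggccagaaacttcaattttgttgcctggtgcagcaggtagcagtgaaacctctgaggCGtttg
Syk: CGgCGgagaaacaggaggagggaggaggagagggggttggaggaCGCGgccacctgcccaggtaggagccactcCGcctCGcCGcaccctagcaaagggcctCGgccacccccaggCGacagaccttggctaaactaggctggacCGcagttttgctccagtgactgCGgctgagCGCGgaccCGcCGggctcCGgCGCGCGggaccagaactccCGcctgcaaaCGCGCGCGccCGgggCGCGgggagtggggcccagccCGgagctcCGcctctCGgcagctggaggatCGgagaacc
Rel: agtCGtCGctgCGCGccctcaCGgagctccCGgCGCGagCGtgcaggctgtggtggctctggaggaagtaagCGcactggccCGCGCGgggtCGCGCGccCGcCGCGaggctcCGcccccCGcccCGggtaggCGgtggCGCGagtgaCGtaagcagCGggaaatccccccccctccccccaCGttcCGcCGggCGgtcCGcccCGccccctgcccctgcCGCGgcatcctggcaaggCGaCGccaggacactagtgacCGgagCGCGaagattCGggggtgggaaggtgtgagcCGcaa
Pou2af1: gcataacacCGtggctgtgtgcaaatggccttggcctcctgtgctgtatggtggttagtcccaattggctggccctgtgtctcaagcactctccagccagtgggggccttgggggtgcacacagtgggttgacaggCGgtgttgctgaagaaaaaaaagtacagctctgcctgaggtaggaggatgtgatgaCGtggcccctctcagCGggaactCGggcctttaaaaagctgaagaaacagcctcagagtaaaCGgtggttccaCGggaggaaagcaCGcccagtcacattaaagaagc
Rassf1: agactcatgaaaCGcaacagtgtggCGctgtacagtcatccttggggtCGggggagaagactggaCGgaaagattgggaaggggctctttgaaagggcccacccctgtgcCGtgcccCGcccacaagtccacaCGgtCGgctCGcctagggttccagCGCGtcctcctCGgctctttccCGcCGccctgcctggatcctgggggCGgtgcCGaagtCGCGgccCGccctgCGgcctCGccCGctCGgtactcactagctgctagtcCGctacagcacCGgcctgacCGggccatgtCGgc
CG dinucleotides were dense in 5 of the 6: 42 in Rel, 37 in Gabpb1, 31 in Syk, 27 in Rassf1 and 20 in Cxcr4, against 8 in Pou2af1. The number of CG over that expected from base composition was 0.996 in Rel, 0.970 in Gabpb1 and 0.356 in Pou2af1, and it exceeded 0.6 in 36.4% of all 27025 promoters of the table. GGGCGG, searched on both strands, was present in Gabpb1, Cxcr4, Rel and Rassf1 and in 35.9% of all promoters. CCGGAA was present in Gabpb1 and in 15.2% of all promoters, TATAAA in Cxcr4 and in 14.2%, CCAAT in Pou2af1 and Rassf1 and in 37.9%. ATGCAAAT was found in none of the 6 and in 1.75% of all promoters. A count of these features over all wide promoter regions is void, because 1792 of the 2250 symbols (79.6%) matched the table, below the 80% set for such a check.

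The wide promoter regions had a median width of 1482 bp, with quartiles of 1186 and 2039 bp, whereas the median over all H3K4me1 regions was 154 bp. They made up 38.4% of the 6052 wide regions and 23.9% of the 9713 regions within 1000 bp of a gene start. The gene start lay inside the region in 1802 of them (77.5%) and beside it in 523. Only 77 reached 5000 bp. The longest, of 17284 bp (mm9 chr19:4289144-4306427), covered the start of Adrbk1, which encodes a kinase that desensitizes G protein-coupled receptors. Its H3K4me1 was 105 and 102 CPM in the KO libraries and 185 and 186 CPM in the WT libraries. The next, of 14514 bp, covered the start of Mef2d, which encodes a MADS-box transcription factor. It held 79.3 and 75.1 CPM in KO against 151 and 154 CPM in WT. The region of 13428 bp at Rn4.5s lies at a multicopy small RNA gene, where reads cannot be assigned to 1 copy, and it was higher in KO, at 196 and 200 CPM against 104 and 105 CPM.

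Most of the width came from the libraries labelled WT. A peak of its own of at least 1000 bp was present at 227 and 257 of the 2325 regions in the KO lists, against 1810 and 1639 in the WT lists. A consensus peak was counted where a peak called in replicate 1 was touched by any peak of replicate 2. Such a peak was present at 24.7% of the regions in KO and at 92.3% in WT. Over all merged H3K4me1 regions these shares were 60.2% and 64.5%. The rule thus chose regions through their WT signal. The H3K4me1 difference between KO and WT is therefore given as a description, and its calls are not read as a test. At the edge of the rule, the 179 promoter regions of 1000 to 1049 bp had median levels of 2.24 and 2.23 CPM per kb in KO and 5.62 and 5.86 in WT. The 194 just outside it, of 950 to 999 bp, had 2.27 and 2.26 CPM per kb in KO and 6.23 in both WT libraries. At the edge in distance, 20 wide regions at 901 to 1000 bp had a median log2 fold change (KO over WT) of 0.04, and 14 at 1001 to 1100 bp had 0.36.

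H3K4me1 over the wide promoter regions was lower in the libraries labelled KO. The median level was 2.53 and 2.52 CPM per kb in KO, against 6.58 and 6.69 CPM per kb in WT. The share of all region reads that fell in them was 1.75% and 1.74% in KO, against 3.31% and 3.36% in WT, and the groups do not overlap. In the edgeR quasi-likelihood fit over 179582 regions, 176 of the 2325 were called higher and 1973 lower in KO, beside a background of 6.44% higher and 9.98% lower over all regions tested. Nothing is read from that count, since the rule used the same contrast. The median log2 fold change was -1.38 over the wide promoter regions, -0.18 over 3727 wide distal regions, -0.47 over 7368 narrow promoter regions and 0.0050 over all regions. The level plot shows the lower group as a dense cloud under the line of equal levels.

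**Figure D1:**
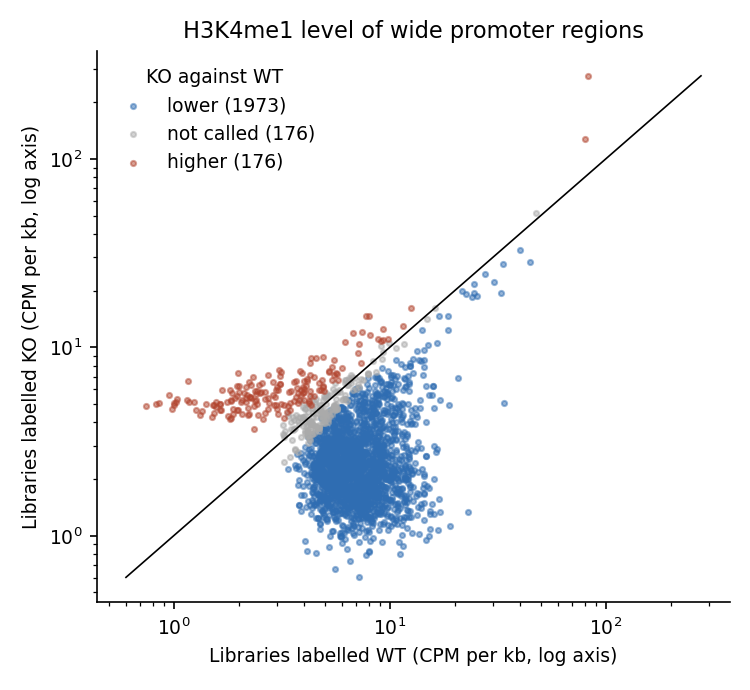
H3K4me1 level of the 2325 wide promoter regions, in CPM per kb on log axes, as the mean of the 2 libraries labelled KO (vertical) and of the 2 labelled WT (horizontal). Points are regions coloured by the edgeR call and the line marks equal levels; 1973 lie in the lower group, 176 in the higher group and 176 were not called. The regions were chosen through the same signal, so the calls only label the points.

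Regions that cover the gene start and regions beside it are described apart. The 1802 that cover it had a median log2 fold change of -1.50, and 69 were called higher and 1647 lower. The 523 beside it had a median of -0.71, with 107 higher and 326 lower. Among the 176 regions called higher, 39.2% covered the gene start, against 83.5% of the 1973 called lower. Median widths were 1456 bp among the higher and 1484 bp among the lower regions. The widest regions differed least: the median was -0.89 for the 244 of 3000 bp or more and -1.46 for the 1195 of 1000 to 1499 bp.

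Among the better covered regions, the steepest falls lay at gene starts. The region at Sh3glb1, which encodes the membrane-bending protein endophilin B1 (mm9 chr3:144382268-144383356), held 1.40 and 1.51 CPM in KO, against 23.5 and 26.5 CPM in WT. Its log2 fold change was -4.11 ± 0.14 (SE). The region at C1galt1, which encodes the enzyme that builds the core 1 structure of O-glycans, held 1.76 and 1.51 CPM in KO against 24.9 and 25.8 CPM in WT. Gabpb1, whose promoter is printed above and which encodes a subunit of the Ets-family factor GABP, held 2.98 and 4.36 CPM in KO against 52.6 and 51.1 CPM in WT (chr2:126499136-126502520). The 3 regions were chosen for being lower in KO without overlap between the groups. Cd164, a sialomucin gene of haematopoietic progenitors, had 1.28 and 1.98 CPM in KO against 21.3 and 22.5 CPM in WT. Kansl1l had 1.64 and 2.15 CPM in KO against 24.7 and 24.5 CPM in WT. Baz2b, which encodes a bromodomain protein, had 1.52 and 2.09 CPM in KO against 21.9 and 22.3 CPM in WT. Phip encodes a close relative of BRWD1 with the same kind of domains, and its region had 1.94 and 1.39 CPM in KO against 19.5 and 20.2 CPM in WT. Hivep1, a zinc finger gene, had 1.46 and 2.32 CPM in KO against 22.3 and 21.0 CPM in WT. The log2 fold changes of these 8 regions ran from -4.11 to -3.50.

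Among called regions at or above the median level, the 8 furthest above WT in KO differed by less, and all of them lay beside the annotated gene start. Fgf11, a member of the fibroblast growth factor family, led with 12.9 and 13.9 CPM in KO against 4.19 and 4.08 CPM in WT (log2 1.70 ± 0.12, SE). Fgd2, an exchange factor for the GTPase Cdc42, had 21.8 and 19.8 CPM in KO against 7.29 and 7.00 CPM in WT. Plxnd1, a semaphorin receptor gene, had 10.7 and 11.3 CPM in KO against 4.19 and 3.50 CPM in WT. These 3 were likewise chosen for being higher in KO. Ptprs, a receptor tyrosine phosphatase gene, had 14.8 and 12.7 CPM in KO against 5.17 and 4.42 CPM in WT. Rassf1, a tumour suppressor gene whose promoter is printed above, had 10.9 and 9.59 CPM in KO against 3.81 and 3.73 CPM in WT. Rab44, Cisd3 and Reep2 completed the first 8, with log2 fold changes of 1.45, 1.38 and 1.33. The plot of named regions shows each library, and groups that do not overlap were a condition for both sets of 8.

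**Figure D2:**
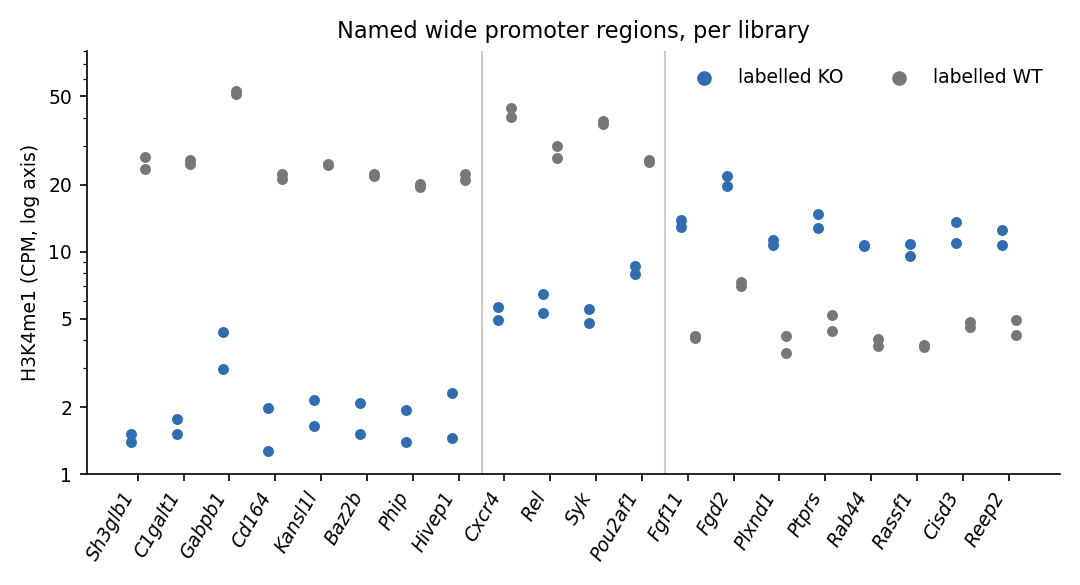
H3K4me1 in CPM on a log axis at 20 named wide promoter regions, with 1 dot per library, KO left of WT at each gene. Among called regions at or above the median level with groups that do not overlap, the first 8 have the steepest lower and the last 8 the steepest higher values in the libraries labelled KO, and the 4 between them (Cxcr4, Rel, Syk and Pou2af1) are B cell genes chosen by name.

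Many genes of the B lineage carried a wide promoter region, as did genes of some other lists. For each list below the members were chosen with results of these data known. Of 10 marker genes of the pre-B stage, 8 had one, among them Cd79a, Cd79b, Pax5, Ebf1 and Vpreb1, and Igll1 and Rag1 had narrower regions. Of marker genes of other blood cells, 3 of 22 T cell genes (Cd5, Cd2 and Lat), 2 of 24 myeloid genes (Csf2ra and Cebpb) and 1 of 22 erythroid and megakaryocyte genes (Zfpm1) had one. The summed level of the T cell regions was 26.9 and 28.9 CPM in KO against 29.4 and 30.5 CPM in WT, that of the myeloid regions 13.3 and 13.2 against 18.3 and 18.5 CPM, and that of the erythroid region 37.6 and 38.1 against 89.4 and 95.3 CPM. Their part in the results was not tested. For comparison, 12 of 24 genes of the pre-B receptor and of Ig recombination, 23 of 32 B lineage transcription factor genes, 16 of 21 NF-kB and survival genes and 13 of 27 genes of mature B cell surface and antigen presentation had a wide region. So did 15 of 27 chromatin remodeller, 13 of 24 chaperone and stress and 8 of 16 cohesin and CTCF genes. Fewer did among proliferation and early pro-B (7 of 28), ribosomal protein (9 of 32), glycolysis and energy sensing (4 of 27) and oxidative phosphorylation genes (3 of 31). A wide region was therefore not particular to B lineage genes, and the share over all genes was not counted.

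Over all wide promoter regions 84.9% were called lower, and nothing is read from the counts of the lists against that share. Pre-B receptor and Ig recombination genes were lower in the libraries labelled KO at 11 of 13 regions and higher at none, with a median log2 fold change of -1.12. Syk, the kinase that starts this signal, had 4.80 and 5.52 CPM in KO against 37.6 and 38.7 CPM in WT (chr13:52677866-52681108, log2 -2.88 ± 0.09, SE). Blnk, the adaptor that Syk phosphorylates, carried a region of 8339 bp with 42.6 and 41.1 CPM in KO against 89.7 and 92.7 CPM in WT. Cd22, an inhibitory coreceptor gene, had 17.4 and 17.7 CPM in KO against 16.5 and 18.2 CPM in WT, and its libraries overlap between groups.

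Regions of B lineage transcription factors were lower at 22 of 26 and higher at 2, with a median of -1.22. Pou2af1, a coactivator gene of B cells, carried a pair of regions. The one over the gene start (chr9:51021384-51024146) had 4.38 and 4.94 CPM in KO against 25.7 and 26.8 CPM in WT. The one beside it (chr9:51019214-51021265) had 8.63 and 7.96 CPM in KO against 25.8 and 25.3 CPM in WT. The 12811 bp at Spib, an Ets factor gene of B cells, held 90.0 and 89.6 CPM in KO against 158 and 152 CPM in WT. Tcf12, an E protein gene, had 11.1 and 9.88 CPM in KO against 14.7 and 14.9 CPM in WT. Klf2, a factor of lymphocyte quiescence, carried a pair of regions, of which only the one with the higher level per kb is given. It had 15.6 and 14.2 CPM in KO against 12.8 and 13.9 CPM in WT and was not called.

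NF-kB and survival genes were lower at 16 of 19 regions and higher at 1, with a median of -1.67. Rel, an NF-kB subunit, had 5.29 and 6.45 CPM in KO against 26.3 and 29.8 CPM in WT. Nfkb2, another subunit, had 7.90 and 6.91 CPM in KO against 32.2 and 32.8 CPM in WT. Nfkbie, an inhibitor of the pathway, had 17.8 and 16.9 CPM in KO against 52.9 and 51.2 CPM in WT. Genes of mature B cells split, with 11 regions lower and 5 higher. Cxcr4, the chemokine receptor that holds B cell precursors in the marrow, had a pair of regions: over the gene start 5.65 and 4.94 CPM in KO against 40.5 and 44.2 CPM in WT (log2 -3.00 ± 0.09, SE), and beside it 5.41 and 7.61 CPM in KO against 13.6 and 13.1 CPM in WT. H2-DMb2, a gene of peptide loading onto MHC class II, also had a pair, of which only the one with the higher level per kb is given. That region had 22.6 and 21.6 CPM in KO against 15.4 and 15.5 CPM in WT.

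Other gene groups are described by the same counts. All 16 regions of chromatin remodeller genes were lower in KO, with a median of -2.02, among them Ino80 (3.46 and 3.49 CPM in KO against 22.4 and 24.1 CPM in WT). All 8 regions of genes of cohesin, its regulators and CTCF were lower, with a median of -2.28. Stag2, a cohesin subunit gene, had 1.82 and 1.80 CPM in KO against 14.9 and 14.6 CPM in WT. Nipbl, the loader gene, had 5.23 and 5.58 CPM in KO against 24.4 and 26.4 CPM in WT. Ribosomal protein genes had 9 wide regions among 32 genes, all lower, and genes of oxidative phosphorylation 3 among 31 genes. Of these 3, Ndufs8 had 6.26 and 7.09 CPM in KO against 6.21 and 6.07 CPM in WT. Glycolysis and energy sensing genes had 4 regions, all lower, and chaperone and stress genes had 13, of which 10 were lower and 2 higher. Proliferation and early pro-B genes had 7 regions, 5 of them lower and none higher. These are counts over few regions, and no list was tested against the rest.

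H3K27ac was measured over its own merged regions, and 1404 of these overlapped a wide promoter region. Such a partner exists only where an H3K27ac peak was called in either genotype. The wide regions were themselves chosen mainly through the libraries labelled H3K4me1 WT. The H3K27ac counts therefore describe regions chosen for signal, and nothing is read from them against the background. Of the 1350 tested, 138 were higher and 658 lower in the libraries labelled KO (edgeR, Benjamini-Hochberg adjusted p below 0.05). The background over 235173 H3K27ac regions was 5.9% higher and 10.6% lower, and their median log2 fold change was 0.02. The median over the wide promoter regions was -0.70, against 0.20 at wide distal and 0.02 at narrow promoter regions. The box plot of fold changes shows both marks by class. H3K27ac consensus peaks were present at 250 of the 2325 regions (10.8%) in KO and at 852 (36.6%) in WT, and over all merged H3K4me1 regions at 69.4% and 80.8%. The peak names in both KO lists are those of H3K4me1, as described above, so these directions compare libraries whose mark is in doubt. The counts split the same way as H3K4me1: of 1187 tested regions whose H3K4me1 was called lower, 651 were lower and 74 higher, and of 81 whose H3K4me1 was called higher, 3 were lower and 43 higher. The share of all region reads in these partners was 0.346% in both KO libraries against 0.360% and 0.359% in WT, a small margin (exact permutation p = 0.333). H3K27ac regions classed by their own width and distance went the other way. The 263 wide promoter ones held 0.155% and 0.154% in KO against 0.141% in both WT libraries. The 5571 narrow promoter ones held 2.84% and 2.88% in KO against 2.44% and 2.45% in WT.

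The first 4 H3K27ac regions below were picked as the first 2 per direction by fold change, among called regions with groups that do not overlap. Their p-values describe picked extremes, between libraries whose mark is in doubt, and nothing is read from them. The region at Herpud1, a gene of the endoplasmic reticulum stress response, had 0.459 and 0.355 CPM in KO against 3.51 and 2.90 CPM in WT. Its log2 fold change was -2.95 ± 0.27 (SE, edgeR quasi-likelihood test, adjusted p = 3.03e-19). Whsc1l1, which encodes a histone H3 lysine 36 methyltransferase, had 0.418 and 0.355 CPM in KO against 3.32 and 2.64 CPM in WT (edgeR adjusted p = 4.81e-18). In the other direction Hspa2, a member of the HSP70 chaperone family, had 8.73 and 10.4 CPM in KO against 0.725 and 0.441 CPM in WT. This was a log2 fold change of 4.03 ± 0.19 (SE, edgeR adjusted p = 2.26e-48). Dux, a multicopy homeobox gene whose reads cannot be assigned to 1 copy, had 9.27 and 8.43 CPM in KO against 1.37 and 1.73 CPM in WT. At Syk, H3K27ac was 1.42 and 1.38 CPM in KO against 2.79 and 3.12 CPM in WT (log2 -1.08 ± 0.21, SE, edgeR adjusted p = 9.84e-06). Beside the gene start of Pou2af1, H3K27ac was 3.17 and 2.40 CPM in KO against 2.86 and 3.12 CPM in WT, and the groups overlap.

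**Figure D3:**
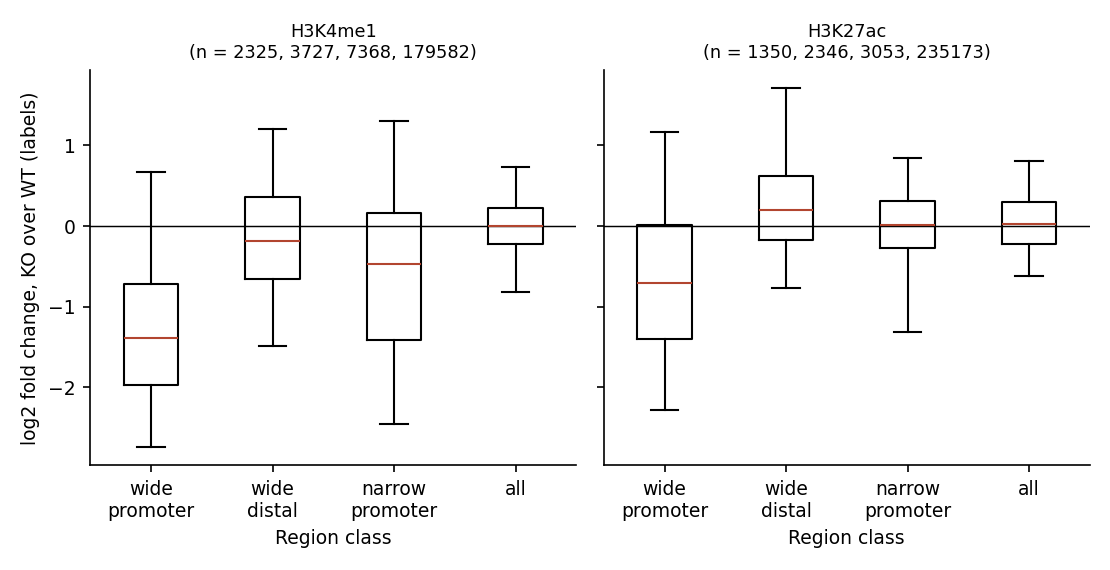
Log2 fold change, libraries labelled KO over those labelled WT, by class of H3K4me1 region and over all regions, for H3K4me1 (left) and H3K27ac (right). Boxes span the quartiles with the median as a line and whiskers reach the 5th and 95th percentiles; the medians of the wide promoter class are -1.38 and -0.70, and those of all regions lie near 0.

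Cohesin peaks were not used to choose the regions. SMC3 consensus peaks lay at 1083 of the 2325 wide promoter regions (46.6%, exact binomial 95% interval 44.5% to 48.6%) in ATPneg cells. They lay at 108 (4.65%, 3.83% to 5.58%) in KO cells and at 8 (0.344%, 0.149% to 0.677%) in WT cells. These intervals cover counting error only. Over all merged H3K4me1 regions the shares were 5.37% in ATPneg, 0.667% in KO and 2.53% in WT. By library, SMC3 peaks lay at 61.0% and 57.3% of the regions in ATPneg, at 6.71% and 7.31% in KO and at 0.817% and 1.51% in WT. No ATPneg library overlaps a WT library, and the difference of 58.0 percentage points between the means exceeds the spread between replicates (SD 2.59 in ATPneg and 0.487 in WT, n = 2 each). With 2 libraries against 2 the exact permutation test cannot give a two-sided p below 0.333, which is what it gave here.

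The lists of SMC3 peaks differed in size in another order. The ATPneg lists held 40667 and 39437 peaks, the KO lists 12467 and 12323 and the WT lists 41044 and 64033. Of all SMC3 peaks in a list, 4.18% and 3.89% lay in wide promoter regions in ATPneg, against 1.34% and 1.43% in KO and 0.0512% and 0.0625% in WT. The ATPneg peaks in these regions were long, with median lengths of 655 and 654 bp against 394 and 390 bp over their lists. The authors' scores of these peaks were below those of their lists, with medians of 8.92 and 8.81 against 12.2 and 12.1. The ATPneg libraries have peak lists but no counts among the files used here, so their depth is unknown and the peaks cannot be set against reads.

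**Figure D4:**
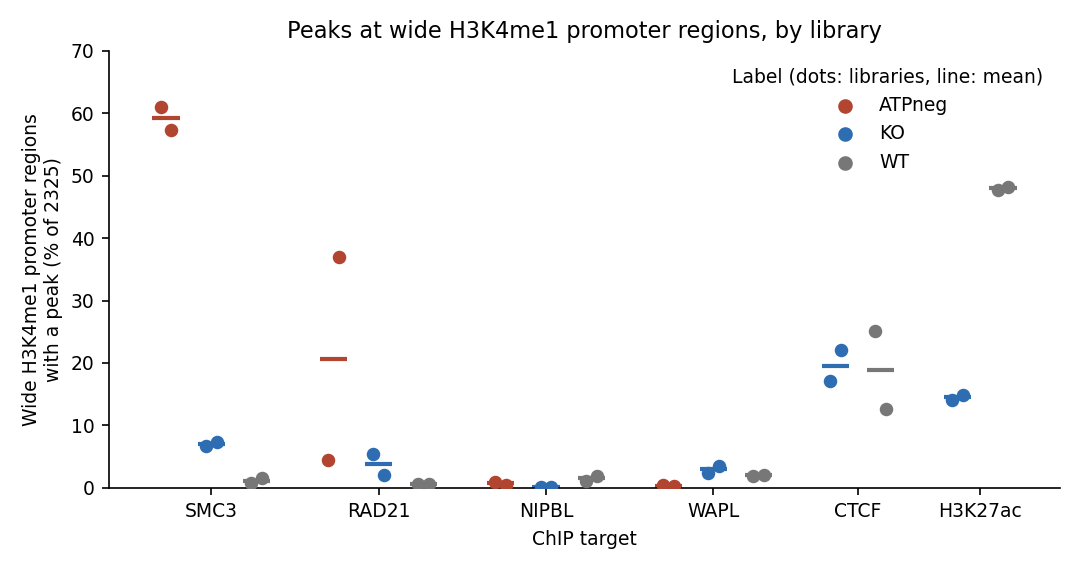
Share of the 2325 wide H3K4me1 promoter regions that overlap a peak, in percent, by ChIP target and label (ATPneg, KO and WT from left to right). Dots are libraries and lines their means; SMC3 in ATPneg reached 61.0% and 57.3%, RAD21 in ATPneg 4.39% and 37.0%, and the highest KO or WT library of SMC3 or RAD21 stood at 7.31%.

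SMC3 in ATPneg cells was found across the gene groups. At Syk, Rel, Ino80, Atf4 and Hspa4 both ATPneg libraries and no KO or WT library had an SMC3 peak. Nfkb2 and Phip had one in both ATPneg libraries and in KO 1, and none in WT. At Cxcr4, over the gene start, both ATPneg and both KO libraries had one and neither WT library did, and the same held at Cd164 and Cdk9. At Gabpb1 a peak was present in 1 ATPneg library and in no KO or WT library. Blnk and both Pou2af1 regions had no SMC3 peak in any library, Nfkbie had one in ATPneg 1 alone and Cd22 in WT 2 alone. None of Fgf11, Fgd2, Plxnd1, Ptprs, Rab44, Rassf1 and Reep2, where H3K4me1 was higher in KO, had one in any library. Cisd3, also higher in KO, had one in ATPneg 2 alone. Among the named lower regions, Hivep1 had one in KO 2 alone and Baz2b in ATPneg 1 alone. Kansl1l had one in both ATPneg libraries, C1galt1 in these and KO 2, and Sh3glb1 in these, KO 2 and WT 1. By list, SMC3 consensus peaks in ATPneg covered 15 of 19 NF-kB and survival regions, 14 of 26 B lineage transcription factor regions, 7 of 8 cohesin and CTCF regions and 9 of 13 chaperone and stress regions. They covered 3 of 13 pre-B receptor and Ig recombination regions, 2 of 7 proliferation regions, 11 of 16 mature B cell regions, 8 of 16 chromatin remodeller regions and 5 of 9 ribosomal protein regions. No list was tested against the 46.6% of all wide promoter regions.

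By chromosome the share with an SMC3 consensus peak in ATPneg ran from 32.1% of 56 regions on chromosome 18 to 56.3% of 135 on chromosome 1. It was 44.3% of the regions of 1000 to 1499 bp, 45.0% of those of 1500 to 1999 bp, 51.6% of those of 2000 to 2999 bp and 53.7% of those of 3000 bp or more. It was 47.1% where the region covered the gene start and 44.9% where it lay beside it. Regions whose H3K4me1 was called lower in KO had a peak in 49.3%, those called higher in 24.4% and those not called in 38.6%.

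Against other H3K4me1 regions the wide promoter regions had the largest share with SMC3 in ATPneg among the 3 classes compared. Their density, as counted below, was lower than that of narrow promoter regions. The share was 46.6% of the wide promoter regions, 19.9% of the 3727 wide distal regions (95% interval 18.6% to 21.2%) and 28.2% of the 7388 narrow promoter regions (27.1% to 29.2%). Per 100 kb of region the ATPneg consensus peaks numbered 27.3 at wide promoter and 59.9 at narrow promoter regions, whose median widths were 1482 and 389 bp. In the same order of classes the densities were 2.64, 2.17 and 5.02 in KO and 0.227, 1.40 and 2.40 peaks per 100 kb in WT. These are descriptions over regions, and no test between classes was made.

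CTCF, at which cohesin halts, was present at some of these regions. A CTCF consensus peak was present at 372 of the 2325 (16.0%) in KO and at 247 (10.6%) in WT. Over all merged H3K4me1 regions, with a median width of 154 bp, the shares were 1.3% and 1.15%. In the classes nearer in kind they were 8.26% and 5.69% at wide distal regions and 7.90% and 6.00% at narrow promoter regions. By library the shares of the wide promoter regions were 17.1% and 22.0% in KO and 25.1% and 12.7% in WT, so the groups overlap. Of the 247 regions with a CTCF consensus peak in WT, 225 (91.1%) had an SMC3 consensus peak in ATPneg, 90 (36.4%) in KO and 2 (0.810%) in WT. Of the 2078 without it, 858 (41.3%) had one in ATPneg, 18 (0.866%) in KO and 6 (0.289%) in WT. Of the 108 regions with SMC3 in KO, 101 had a CTCF consensus peak in KO, and in ATPneg 306 of 1083 did. Of the 108, 104 (96.3%) also had it in ATPneg, which is 9.60% of the ATPneg regions. SMC3 in ATPneg was present at 49.1% of the regions with an H3K27ac consensus peak in WT and at 45.1% of those without. The plot of SMC3 by class sets these groups side by side for CTCF.

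**Figure D5:**
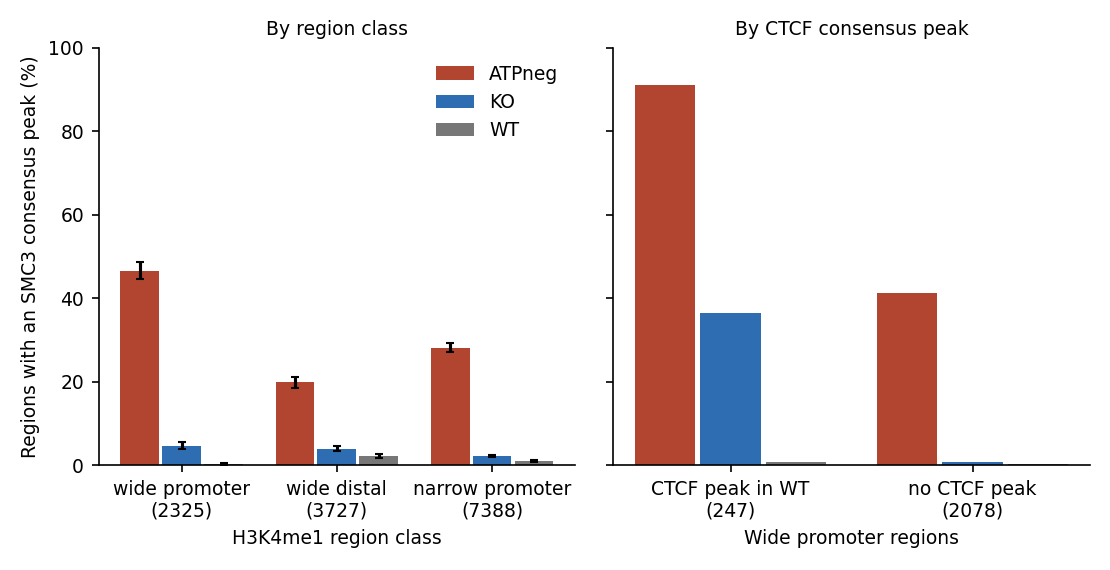
Share of regions with an SMC3 consensus peak, in percent, in ATPneg, KO and WT from left to right, by H3K4me1 region class (left, with exact binomial 95% intervals) and for wide promoter regions with and without a CTCF consensus peak in WT (right). ATPneg stands at 46.6% of wide promoter regions, and at 91.1% and 41.3% with and without CTCF.

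RAD21, the other ring subunit, gave ATPneg libraries that stood apart from each other. A RAD21 peak lay at 4.39% of the wide promoter regions in ATPneg 1 and at 37.0% in ATPneg 2, whose lists held 16375 and 35784 peaks. The shares were 5.46% and 2.02% in KO and 0.645% and 0.559% in WT. The ATPneg libraries were both above both WT libraries, but their SD of 23.1 percentage points was larger than the difference between the means of 20.1 points, and the exact permutation p was 0.333. Of the 861 regions with RAD21 in ATPneg 2, 698 (81.1%) also had the SMC3 consensus peak in ATPneg, as did 96 of the 102 in ATPneg 1 (94.1%). The RAD21 consensus in ATPneg lay at 90 regions (3.87%), against 12 regions (0.516%) in KO and 4 (0.172%) in WT. Over all merged H3K4me1 regions these shares were 1.23%, 3.55% and 1.4%.

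Peaks of the loader and the release factor lay at most 3.44% of these regions in any library. NIPBL peaks lay at 0.946% and 0.473% of the wide promoter regions in ATPneg, at 0.129% and 0.0860% in KO and at 1.16% and 1.94% in WT. WAPL peaks lay at 0.387% and 0.258% in ATPneg, at 2.45% and 3.44% in KO and at 1.89% and 2.06% in WT. By consensus peak the shares of the wide promoter regions were 0.387% in ATPneg, 0.0430% in KO and 0.989% in WT for NIPBL. For WAPL they were 0.0860%, 2.15% and 1.33%. Over all merged H3K4me1 regions the consensus shares were 4.28% in ATPneg, 0.561% in KO and 9.76% in WT for NIPBL, and 1.11%, 23.3% and 14.2% for WAPL. For both targets the ATPneg libraries were below both WT libraries (exact permutation p = 0.333 each). The ATPneg lists of WAPL held 3280 and 4623 peaks against 76389 and 81317 in WT. Those of NIPBL held 14522 and 10224 peaks against 25979 and 55995 in WT, and 2333 and 2048 in KO. Of all WAPL peaks in a list, 0.274% and 0.130% lay in wide promoter regions in ATPneg, against 0.0655% and 0.0639% in WT. For NIPBL this was 0.151% and 0.108% against 0.131% and 0.0929%, and the groups overlap. The lower shares of regions in ATPneg were thus not seen as lower shares of the lists.

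Counts in KO and WT exist for the merged regions of each target, and a wide promoter region has such a partner only where a peak was called in either genotype. The counts below are therefore a description of regions chosen for signal, not support for a change over all 2325. Apart from Cxcr4, the single regions named for these targets were picked by fold change among called regions with groups that do not overlap. SMC3 had 250 partners, all tested, of which 220 were higher and 2 lower in KO, beside a background of 22.1% higher and 18.1% lower (40.2% either way) over 77109 regions. Most SMC3 partners of the other classes were higher too. At wide distal regions 60.4% of 414 were higher and 7.25% lower, and at narrow promoter regions 62.7% of 512 and 2.54%. The KO libraries held 4010016 and 4242112 reads in SMC3 regions against 17667209 and 15416715 in WT, and the part of this depth in the result was not tested. At Cxcr4, over the gene start, SMC3 averaged 80.8 ± 6.78 CPM in KO and 11.2 ± 1.65 CPM in WT (SD, n = 2 each; log2 2.85 ± 0.17, SE, edgeR adjusted p = 0.000571). At Pold4, a DNA polymerase delta subunit gene, it was 27.2 and 21.3 CPM in KO against 1.31 and 1.19 CPM in WT (log2 4.27 ± 0.24, SE). At Cdk9, the kinase of transcription elongation, it was 18.8 and 21.0 CPM in KO against 1.31 and 1.38 CPM in WT (log2 3.88 ± 0.22, SE). At Ighj4, within the Ig heavy chain locus, which is itself rearranged in these cells, SMC3 was 58.2 and 61.5 CPM in KO against 75.5 and 86.0 CPM in WT (edgeR adjusted p = 0.0420). That call was lost with library totals, background scaling, DESeq2, input-subtracted counts, no filter and each KO library left out.

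CTCF had 803 partners, of which 723 were tested and none was called in either direction. At an unadjusted edgeR p below 0.05, 19 were higher and 22 lower, and DESeq2 called none. The background was 0.00792% higher and 0.0317% lower (0.0396% either way). CTCF WT 2 stood apart, with 17055094 reads against 3880112 to 5033230 in the other libraries. Without it 22 were higher and 240 lower, and without CTCF WT 1 617 were higher and 26 lower, so the direction rests on which WT library is kept. RAD21 had 165 tested partners, with none higher and 1 lower, beside a background of 2.3% higher and 21.1% lower (23.4% either way). At an unadjusted edgeR p below 0.05 the counts were 14 higher and 2 lower, and DESeq2 called 24 higher and 1 lower. Without RAD21 KO 1 they were 31 higher and 10 lower, and without RAD21 KO 2 124 higher and 2 lower.

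WAPL had 99 tested partners, of which 17 were higher and 1 lower in KO, against a background of 13.1% higher and 27.6% lower (40.7% either way). Of WAPL partners of wide distal regions 23.5% were higher and 9.22% lower, and of those of narrow promoter regions 21.5% and 1.34%. The share of all WAPL region reads in the partners went the other way. It was 0.130% and 0.133% in KO against 0.181% and 0.175% in WT (exact permutation p = 0.333). At the promoter shared by Tap1 and Psmb9, genes of peptide supply for MHC class I, WAPL was 8.51 and 8.98 CPM in KO against 5.03 and 3.96 CPM in WT (log2 0.96 ± 0.20, SE, edgeR adjusted p = 0.0157). At Tgtp1, an interferon-induced GTPase gene, it was 46.7 and 42.2 CPM in KO against 23.8 and 17.6 CPM in WT (edgeR adjusted p = 0.00712). Both calls were lost when either KO library was left out and with input-subtracted counts. With either KO library left out the higher WAPL calls over all partners were lost. The median log2 fold change of the partners was 0.41 without KO 1 and 0.37 without KO 2, against 0.41 with all libraries. NIPBL had 50 tested partners, with 1 higher and none lower, against a background of 0.995% higher and 0.63% lower (1.63% either way). At an unadjusted edgeR p below 0.05 there were 6 higher and 2 lower, and DESeq2 called 1 higher and none lower. The 1 call lay at Rn45s, the ribosomal RNA repeat, with 341 and 276 CPM in KO against 103 and 55.6 CPM in WT, where copies cannot be told apart. It was lost when either WT library was left out and with input-subtracted counts.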

How the data were processed

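ChIP-seq of 7 targets gave 36 libraries and 4 inputs. Samples were grouped by titles and, for H3K27ac and H3K4me1 in WT, descriptions. Per the submitters' processing notes the build was mm9 and the tools BWA, Picard, MACS2, bedtools, featureCounts and edgeR, with no versions. Counts, as deposited, give the reads of each library in each merged region, and the authors' input-subtracted counts, a score, were used as an alternative. The deposited normalized signal supplied region positions and gene annotation. The deposited peak lists give a score per peak. The 2 columns of an external input were not used.

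Counts were tested per target with edgeR 4.0.16 (R 4.3.3): TMM, filterByExpr, quasi-likelihood F test, 2 KO against 2 WT libraries, Benjamini-Hochberg over all regions. CPM uses TMM factors, and the SE is the absolute log2 fold change over the square root of F. The fit was tested on simulated data for H3K4me1 and SMC3. Peaks were overlapped by at least 1 bp with bedtools 2.31.1, and a wide region was joined to the region of another target with the longest overlap. Other work used Python 3.11.15, pandas 2.3.3 and scipy 1.17.1. DESeq2 1.42.0 was an alternative. Reads in regions ran from 3784506 to 30496715 per library.

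Regions and lists were chosen with earlier results of these data known. Named regions were called H3K4me1 regions at or above the median level with groups that do not overlap (first 8 per direction), the 3 with the highest level per kb in each list, the 3 longest, the first 2 per direction for other targets, and a few B cell genes. Symbols of predicted genes and of microRNAs, snoRNAs and receptor clusters were passed over. A region is named by its nearest gene start.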

Additional observations from a re-analysis of the deposited data

How the results depend on the processing

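With other scalings, tools, filters and each library left out, the number of wide promoter regions called for H3K4me1 (2149) stayed within 1.5 times and the median stayed below 0. The regions were chosen through the same H3K4me1 signal, so this stability is no support for a difference. Other choices of regions also changed how many were tested: 563 of 608 were called at 2000 bp or more and 4693 of 5201 at 500 bp or more. With a peak of 1000 bp in both WT lists 1325 of 1382 were called, and with one in both KO lists 123 of 151. In the last set 60 were higher and 63 lower and the median log2 fold change was 0.024; both sets were chosen after seeing the data and by the same H3K4me1 signal, so nothing is read from them. At Cd22 the log2 difference was -0.066 with background scaling and between -0.049 and 0.091 with 1 WT library left out. H3K27ac called 796 of 1350 tested, against 224 of 616 with DESeq2 and 305 of 522 at 2000 bp or more. SMC3 called 222 of 250, against 93 of 105 at 2000 bp or more and 374 of 422 at 500 bp or more. CTCF called 0, and 0 to 643 with 1 library left out; its median was -0.12 to 1.93 then and -0.049 with input-subtracted counts. RAD21 called 1 (lower), against 48 with background scaling, 25 with DESeq2 and 4 at 500 bp or more, mostly higher, 3 with any overlapping region, and 0 with no filter, input-subtracted counts, 2000 bp or more, a gene start within 200 bp or the replicate block; with 1 library left out it called 0 to 126, with medians of -0.18 to 2.19. WAPL called 18, against 33 with library totals, 74 with background scaling, 8 with DESeq2, 11 with input-subtracted counts, 8 at 2000 bp or more, 40 at 500 bp or more and 1 to 36 with 1 library left out; without either KO library the direction turned, with 0 higher and 1 lower. NIPBL called 1, against 3 with library totals (1 higher and 2 lower, median -0.10), 6 with background scaling, 0 with input-subtracted counts (median -0.16), 6 at 500 bp or more, 2 with any overlapping region and 0 to 1 with 1 library left out. The cause of these shifts was not tested. The replicate block gave 9 for NIPBL and left the other counts within 1.5 times, RAD21 aside; deviations of same-numbered libraries correlated at -0.22 to 0.03, so the numbers share only a number.

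The SMC3 share in ATPneg minus WT, 46.2 percentage points, was 19.4 with a stricter peak score, 34.7 with 50% of the peak inside, 69.2 with the union of replicates and 55.8 to 60.2 with 1 replicate left out. The RAD21 difference, 3.70, was 1.55 with a stricter score, 1.94 with 50% of the peak inside, 36.4 with the union and 3.74 to 36.5 with 1 replicate left out. NIPBL, at -0.602, was -1.08 with the union and -1.46 to -0.215 with 1 replicate left out. WAPL, at -1.25, was -0.688 with a stricter score, -2.06 with the union and -1.81 to -1.51 with 1 replicate left out. At 2000 bp or more the log2 difference in read share was 0.037 for H3K27ac, 0.55 for RAD21 and 0.46 for WAPL, opposite in sign to all wide promoter regions. The CpG threshold was not varied because the promoter count was void. ATPneg libraries have no counts here, the KO libraries of SMC3, RAD21 and NIPBL held fewer reads than WT, and nothing says which animals the libraries came from beyond separate biological replicates.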
